A study of Mus musculus with 16 samples.

Results

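The 10 genes described here code for enzymes that turn cholesterol into bile acids and for the FXR-SHP pair of nuclear receptors that regulates them: Cyp7a1, Cyp8b1, Cyp27a1, Cyp7b1, Hsd3b7, Akr1d1, Baat, Slc27a5, Nr0b2 and Nr1h4. They were listed by symbol, with earlier results of these data known, and all 10 were found among the 24082 Ensembl genes of the table and among the 12537 genes tested. Whole liver RNA of 16 female C57BL6/J mice, 9 to 11 weeks old, was sequenced. No gene was modified in any group. Pair control mice were pair-fed a liquid diet without ethanol and received vehicle. Pair IMC mice received the same diet with iodomethylcholine (IMC) at 0.06% wt/wt, a small molecule that blocks the gut bacterial enzyme converting choline to trimethylamine. EtOH control mice were fed ethanol, raised stepwise to 6% vol/vol over 25 days, with vehicle, and EtOH IMC mice were fed ethanol together with IMC. Each group held 4 mice. The paper reports that mice given IMC with ethanol ate less and weighed less. The legend of its body weight figure also gives a mark for a difference between pair-fed mice with and without IMC. In ethanol-fed mice an effect of IMC and an effect of lower intake therefore cannot be told apart. In pair-fed mice the same holds for an effect of body weight.

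Bile acids are made in hepatocytes by a classic pathway, which Cyp7a1 opens and controls, and by an alternative pathway, which Cyp27a1 and Cyp7b1 open. Cyp8b1 adds the hydroxyl group that makes cholic acid, and so sets how much of the pool is cholic acid rather than chenodeoxycholic acid and the muricholic acids of mice. Hsd3b7 and Akr1d1 modify the steroid ring, Slc27a5 activates the bile acid to its coenzyme A ester, and Baat joins it to taurine or glycine. FXR (Nr1h4) is the receptor for bile acids. In liver it induces SHP (Nr0b2), a repressor of Cyp7a1 and Cyp8b1, and in ileum it induces the hormone FGF15, which lowers the same genes through the hepatic receptor Fgfr4 and its partner Klb.

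The sequences upstream of Cyp8b1, the member with the widest change, and of Nr0b2, the repressor assigned to it, are shown because the members are linked through nuclear receptor binding. RefSeq promoters on GRCm38.p6 were held for 6 of the 10 members (Cyp8b1, Cyp27a1, Hsd3b7, Akr1d1, Nr0b2 and Nr1h4). Each window is the 250 bases before the RefSeq start, on the strand of the gene. For Nr1h4 the window, chr10:89506659-89506908, lies inside the GENCODE gene given further on, so it is not the sequence before the GENCODE start. Capitals mark CAAAGTCCA, a common site of the receptor HNF4A.
Cyp8b1, chr9:121916306-121916555, minus strand: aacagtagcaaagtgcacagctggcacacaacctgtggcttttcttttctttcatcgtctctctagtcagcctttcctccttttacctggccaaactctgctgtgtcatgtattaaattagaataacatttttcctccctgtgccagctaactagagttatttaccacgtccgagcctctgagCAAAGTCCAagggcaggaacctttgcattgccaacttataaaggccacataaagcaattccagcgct
Nr0b2, chr4:133553126-133553375, plus strand: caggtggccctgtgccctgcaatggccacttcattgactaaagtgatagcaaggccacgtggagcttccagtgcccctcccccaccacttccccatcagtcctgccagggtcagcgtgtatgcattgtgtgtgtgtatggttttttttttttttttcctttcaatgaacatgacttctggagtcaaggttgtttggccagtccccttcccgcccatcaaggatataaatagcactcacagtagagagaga
Both strands of all 6 windows were searched for CAAAGTCCA, for CAAGGTCA (the letters bound by LRH-1, Nr5a2), for AGGTCA (the core of nuclear receptor sites, which CAAGGTCA contains) and for the inverted repeat of AGGTCA with 1 base between, bound by FXR with RXR. CAAAGTCCA occurred in Cyp8b1 alone, 67 to 59 bases before the start on the strand of the gene, and it occurs in 0.384% of the 32851 RefSeq promoters of the same length. AGGTCA occurred at 2 positions in Akr1d1 and at 1 in Nr1h4, on the opposite strand in each case, and in 14.02% of all promoters. CAAGGTCA, found in 1.33% of promoters, and the inverted repeat, found in 0.00609%, were in none of the 6 windows. At such rates most sets of 6 promoters would hold neither. Only exact letters within 250 bases were searched, so sites with other letters or farther away are not covered. The search cannot show that a member lacks LRH-1 or FXR sites.

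The libraries held 9632659 to 12601199 reads on genes, of which the 10 members took 0.272% to 0.386%. The smallest number of reads behind any value of a member was 119. Values are given as normalized counts, the deposited values rescaled so that the median gene has the same level in all 16 libraries. Before rescaling, the deposited values of the median gene were 1.14-fold higher in the ethanol-fed livers. Alb, the defining hepatocyte gene, took 6.74% or more of the reads in every library, and of 6 hepatocyte markers 0 were called by limma in any of the 4 comparisons of groups (0 to 3 at an unadjusted p under 0.05). Pair IMC and EtOH control livers carry the library numbers 1 to 8 and the remaining groups carry 9 to 16. An effect of IMC within 1 diet, or of ethanol within 1 treatment, and an effect of numbering therefore cannot be told apart. The effect of IMC averaged over both diets is balanced over the numbers. Fold changes are differences of mean log2(value + 1) with their standard error (SE), adjusted p is limma's with Benjamini-Hochberg adjustment over all 12537 genes, and a gene is called where it is under 0.05.

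In Pair control, the order of levels per kilobase of exon ran from Slc27a5, at 4715 ± 423 normalized counts per kilobase (SD, n = 4), to Cyp7b1, at 90.9 ± 12.8. Hsd3b7 (2258 ± 478), Cyp27a1 (1769 ± 133), Baat (1746 ± 75.7) and Akr1d1 (1556 ± 148) followed Slc27a5, and each overlapped the next of these in range. Cyp8b1 (943 ± 117) overlapped Nr1h4 (664 ± 130), and Cyp7a1 (399 ± 111) overlapped Nr0b2 (246 ± 75.6). Slc27a5 thus stood above all other members, and Cyp7b1 below all others.

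Cyp8b1, the gene for the hydroxylase that makes cholic acid, showed the largest change of the 10 members. It fell under IMC in ethanol-fed mice and did not pass the test in pair-fed mice. The gene is a single exon on chromosome 9, 121914356 to 121916305, minus strand (ENSMUSG00000050445). Cyp8b1 stood at 2024, 1600, 1689 and 2046 normalized counts in the Pair control livers and at 2472, 1985, 1044 and 2659 in Pair IMC. In EtOH control it stood at 2975, 3136, 3220 and 2239, and in EtOH IMC at 387, 569, 635 and 145. All 4 EtOH IMC livers lay below every other liver, and all 4 EtOH control livers lay above every Pair control liver. Group means were 1840 ± 229, 2040 ± 722, 2893 ± 447 and 434 ± 220 (SD, n = 4) for these groups as listed. With IMC in ethanol-fed mice, Cyp8b1 was 7.57-fold lower (log2 fold change -2.92, SE 0.35, adjusted p = 3.6e-05). In pair-fed mice the log2 fold change was 0.07 (95% interval -0.66 to 0.81, adjusted p = 0.925). The difference between these effects was itself called, at -2.99 on the log2 scale (SE 0.49, adjusted p = 0.00768). Cyp8b1 was also 5.08-fold lower in EtOH IMC than in Pair IMC (log2 -2.34, adjusted p = 0.000372). With ethanol alone its log2 fold change was 0.65 (95% interval -0.09 to 1.38, adjusted p = 0.239), although the ranges of the groups did not overlap. That comparison passed when fitted on its own 8 libraries (adjusted p = 0.0115). The falls in EtOH IMC and the difference between diets passed under every alternative and without any single library.

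Cyp7a1, whose enzyme opens the classic pathway and limits its rate, was lowest in the same group but far more variable. The gene lies on chromosome 4, 6265612 to 6275633, minus strand (ENSMUSG00000028240), with 6 exons. Cyp7a1 stood at 1456, 1117, 1982 and 2109 normalized counts in Pair control and at 2047, 2349, 2578 and 3744 in Pair IMC. EtOH control spread from 643 in library 1 over 1515 and 2051 to 4314 in library 3, the widest range of its 4 groups. The EtOH IMC livers held 1125, 852, 516 and 233. All 4 EtOH IMC livers thus lay below all Pair IMC livers, but they overlapped EtOH control through library 1. In ethanol-fed mice, Cyp7a1 was 2.94-fold lower with IMC (log2 fold change -1.56, SE 0.47, adjusted p = 0.0263). This call was lost without library 3 (adjusted p = 0.094), 7 (0.0653), 13 (0.0597) or 15 (0.0912), with log2 fold changes of -1.11 to -1.50, and with only the 8 libraries of the comparison (0.0566). An exact permutation test on this member alone gave p = 0.0857, two-sided, where 70 labelings allow 0.0286 at the smallest. In pair-fed mice the log2 fold change was 0.69 (95% interval -0.30 to 1.69, adjusted p = 0.386). Averaged over both diets, the comparison balanced over library numbers, it was -0.43 (95% interval -1.14 to 0.27, adjusted p = 0.354). That average was called under no alternative. The difference of the effects between diets, -2.25 (95% interval -3.66 to -0.84), was not called (adjusted p = 0.114) but was without library 1 (adjusted p = 0.0481). Between EtOH IMC and Pair IMC, Cyp7a1 was 4.48-fold lower (log2 -2.16, adjusted p = 0.00545), a call held under every alternative. Ethanol alone gave 0.09 (95% interval -0.91 to 1.08).

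**Figure D1:**
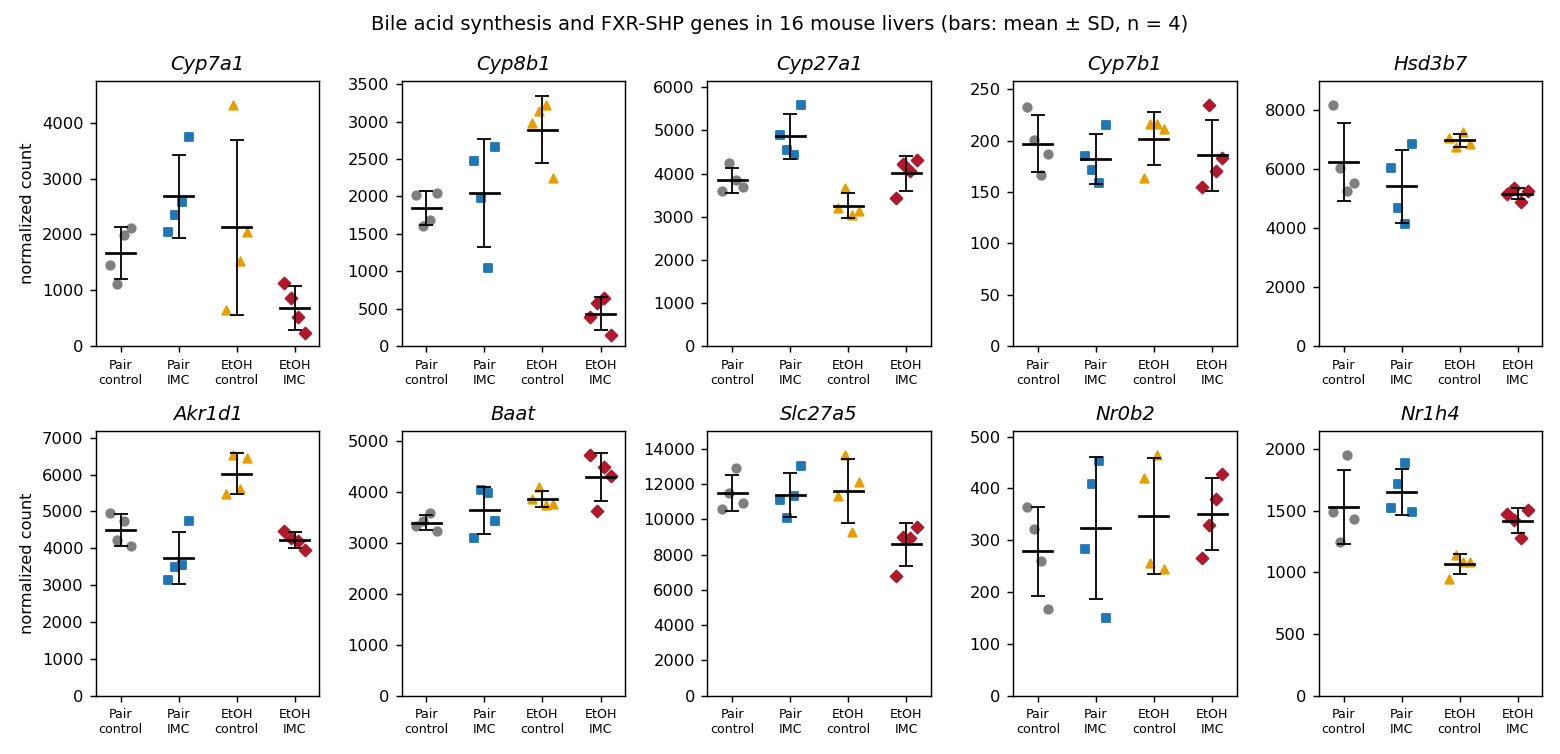
Normalized counts of the 10 members in each of the 16 livers (points), with the group mean and SD (bars, n = 4); every vertical axis starts at 0. Cyp8b1 in EtOH IMC lies between 145 and 635, below every other liver, while Cyp7b1 and Nr0b2 overlap across all groups.

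Cyp27a1, the mitochondrial sterol hydroxylase that opens the alternative pathway, moved the other way. Its locus is chromosome 1, 74713574 to 74737892, plus strand (ENSMUSG00000026170). Cyp27a1 stood at 3583, 4244, 3849 and 3697 normalized counts in Pair control and at 4899, 4546, 4430 and 5586 in Pair IMC, with no overlap. EtOH control held 3196, 3668, 3030 and 3138, and EtOH IMC 3423, 4214, 4060 and 4313, overlapping in 1 liver of each. IMC raised Cyp27a1 1.26-fold in pair-fed mice (log2 0.34, SE 0.10, adjusted p = 0.0362) and 1.23-fold in ethanol-fed mice (log2 0.30, SE 0.10, adjusted p = 0.037). The difference between the effects was -0.04 (95% interval -0.33 to 0.25). Averaged over both diets the rise was 1.24-fold (log2 0.32, SE 0.07, adjusted p = 0.00247) and passed under every alternative. The 2 single-diet calls were close to the threshold. In pair-fed mice the call was lost without library 10, 14, 16, 2, 4 or 8 (adjusted p from 0.0576 to 0.0882), and in ethanol-fed mice without 1, 5, 7, 11, 13 or 15 (0.0793 to 0.10). Both calls were also lost with no filter on low values, without a mean-variance trend, and with edgeR at upper-quartile normalization, among other settings.

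Cyp7b1, which continues the alternative pathway by hydroxylating oxysterols, was the least abundant member and passed no test. Its locus is chromosome 3, 18071950 to 18243338, minus strand (ENSMUSG00000039519). Its normalized counts averaged 197 ± 27.8 in Pair control and 183 ± 24.4 in Pair IMC, and with ethanol 202 ± 25.8 in EtOH control and 186 ± 34.6 in EtOH IMC (SD, n = 4). Every pair of groups overlapped. The 95% interval of the log2 fold change was -0.41 to 0.19 for IMC in pair-fed mice and -0.43 to 0.17 in ethanol-fed mice. Cyp7b1 is known as a male-biased liver gene. Of 12 female-biased genes, 7 were called lower and 1 higher with IMC in ethanol-fed mice, where 11.1% and 10.4% of all genes tested were. In pair-fed mice 5 were called lower and 1 higher, against 5.17% and 4.32% of all genes. Of 7 male-biased genes tested, Cyp7b1 among them, 1 was called lower and 1 higher in ethanol-fed mice. In pair-fed mice 0 of these were called lower and 1 higher.

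Akr1d1, the reductase that sets the bend in the steroid ring, fell with IMC in ethanol-fed mice and rose with ethanol alone. The gene lies on chromosome 6, 37530173 to 37568815, plus strand (ENSMUSG00000038641). Akr1d1 stood at 4966, 4216, 4753 and 4065 normalized counts in Pair control and at 3138, 3486, 3557 and 4751 in Pair IMC. EtOH control held 5481, 6535, 5608 and 6457, above every other liver, and EtOH IMC 4473, 4285, 4204 and 3941. In ethanol-fed mice IMC lowered Akr1d1 by 0.51 on the log2 scale (fold change 0.703, SE 0.11, adjusted p = 0.00427), a call kept under every alternative. In pair-fed mice the log2 fold change was -0.28 (95% interval -0.52 to -0.05, adjusted p = 0.121) and passed only without library 8 (adjusted p = 0.0127), the highest of its group. Averaged over diets the change was -0.39 (adjusted p = 0.00143). Ethanol alone raised Akr1d1 1.34-fold (log2 0.42, SE 0.11, adjusted p = 0.0224), a call lost without library 12, 16, 3 or 7 (adjusted p 0.0532 to 0.0651).

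Hsd3b7, the dehydrogenase that begins the ring modification shared by both pathways, was lower with IMC in ethanol-fed mice by a narrow margin. Its locus is chromosome 7, 127800604 to 127803802, plus strand (ENSMUSG00000042289). The annotated genes that overlap its exons, 9430064I24Rik on the opposite strand and Gm49388 on the same strand, have no row of their own, so its reads are uncertain in origin. Hsd3b7 stood at 7049, 6759, 7270 and 6843 normalized counts in EtOH control and at 5165, 5357, 4898 and 5269 in EtOH IMC, with no overlap. Both pair-fed groups were wider, from 5261 to 8174 in Pair control and from 4145 to 6843 in Pair IMC. The log2 fold change with IMC was -0.43 in ethanol-fed mice (SE 0.14, adjusted p = 0.0381) and -0.21 in pair-fed mice (95% interval -0.51 to 0.09). Removal of any of the 8 ethanol-fed libraries ended the call (adjusted p 0.058 to 0.089), as did quantile normalization (0.267, log2 -0.24). It was also lost with no filter on low values, without a mean-variance trend, and with edgeR on whole reads without library 15. The averaged effect was -0.32 (adjusted p = 0.0241), lost without library 4 (0.0547) or 6 (0.055) and with quantile normalization (0.105).

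Slc27a5, the bile acid coenzyme A ligase and most abundant member, fell in EtOH IMC. It lies on chromosome 7, 12988346 to 12998192, minus strand (ENSMUSG00000030382). Slc27a5 stood at 10601, 11502, 12939 and 10936 normalized counts in Pair control, and at 11121, 10055, 11318 and 13046 in Pair IMC. EtOH control held 11342, 13661, 9283 and 12134, and EtOH IMC 6776, 8986, 8962 and 9588. EtOH IMC livers were below all pair-fed livers and overlapped EtOH control through its lowest liver, library 5. In ethanol-fed mice the log2 fold change with IMC was -0.43 (SE 0.13, adjusted p = 0.0243), lost without library 3 (0.0825), 7 (0.063) or 9 (0.0764). In pair-fed mice it was -0.02 (95% interval -0.29 to 0.26). Averaged over both diets it was -0.23 (95% interval -0.42 to -0.03, adjusted p = 0.0757). The difference between diets was -0.42 (95% interval -0.80 to -0.03, adjusted p = 0.286). Against Pair IMC, EtOH IMC was lower by -0.41 (adjusted p = 0.0368), a call lost without library 2, 6, 8, 9 or 13 (adjusted p 0.0578 to 0.118) and on the values as deposited (0.208). It was also lost with no filter on low values, without a mean-variance trend, with only the libraries of the comparison, and with edgeR at upper-quartile normalization.

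Baat, which conjugates the activated bile acid, passed none of the tests. The gene is on chromosome 4, 49489422 to 49506557, minus strand (ENSMUSG00000039653). Its normalized counts averaged 3389 ± 147 in Pair control and 3631 ± 453 in Pair IMC, and with ethanol 3861 ± 161 in EtOH control and 4281 ± 474 in EtOH IMC (SD, n = 4). The log2 fold change with IMC was 0.14 in ethanol-fed mice (95% interval -0.06 to 0.34) and 0.09 in pair-fed mice (-0.11 to 0.29). EtOH control livers lay above every Pair control liver, but the adjusted p was 0.21 (log2 0.19). On the values as deposited, which carry the shift between diets, Baat was called with ethanol alone (log2 0.38, adjusted p = 0.00855).

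Nr1h4, the gene for FXR, fell with ethanol and rose with IMC in ethanol-fed mice. The gene is on chromosome 10, 89454234 to 89533585, minus strand (ENSMUSG00000047638). Nr1h4 stood at 1486, 1249, 1953 and 1430 normalized counts in Pair control and at 1519, 1715, 1888 and 1493 in Pair IMC. EtOH control held 949, 1141, 1087 and 1087, below every other liver, and EtOH IMC 1473, 1425, 1276 and 1507. Ethanol alone lowered Nr1h4 by 0.50 on the log2 scale (fold change 0.705, SE 0.12, adjusted p = 0.0103), which did not pass on the values as deposited (-0.31, adjusted p = 0.0575). IMC in ethanol-fed mice raised it 1.33-fold (log2 0.41, SE 0.12, adjusted p = 0.0174), a call lost only without library 1 (adjusted p = 0.0569). Averaged over both diets the rise was 0.27 (adjusted p = 0.0199). The pair-fed value was 0.13 (95% interval -0.12 to 0.37), and the difference between diets, 0.29, was not called (adjusted p = 0.416).

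Nr0b2, the gene for SHP, passed no test, and its 4 groups overlapped throughout. It lies on chromosome 4, 133553376 to 133556536, plus strand (ENSMUSG00000037583). Nr0b2 stood at 364, 321, 261 and 167 normalized counts in Pair control and at 283, 409, 452 and 150 in Pair IMC. EtOH control held 421, 257, 465 and 245, and EtOH IMC 265, 329, 379 and 427. In ethanol-fed mice the log2 fold change with IMC was 0.05 (95% interval -0.60 to 0.70, adjusted p = 0.925). As a fold change this interval runs from 0.66 to 1.62. Thus in EtOH IMC, where Cyp8b1 and Cyp7a1 were called lower and Nr1h4 higher, no difference in Nr0b2 was detectable at this spread.

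**Figure D2:**
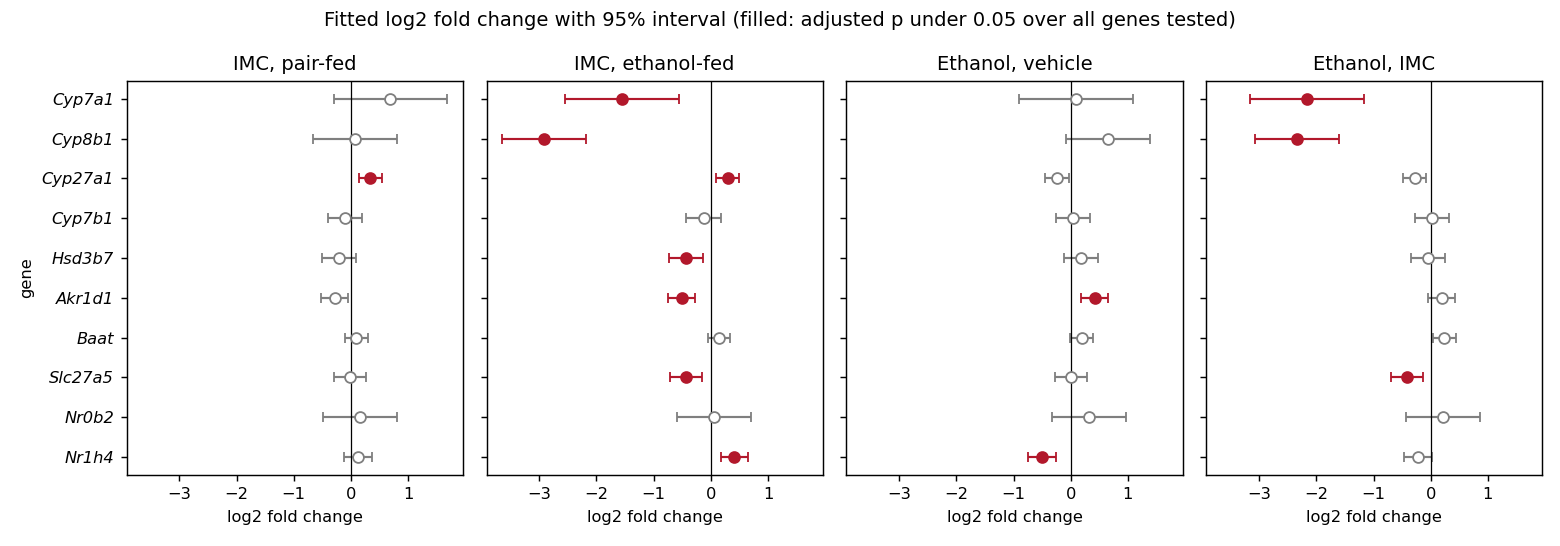
Log2 fold change of each member (horizontal axis, 95% interval as bars) for IMC in pair-fed and ethanol-fed mice and for ethanol with vehicle and with IMC; filled red points have an adjusted p under 0.05 over all genes tested. IMC in ethanol-fed mice has 7 filled points and IMC in pair-fed mice has 1, Cyp27a1.

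Counted over the 10 members, IMC in pair-fed mice called 1 higher and 0 lower, where 4.32% of all genes tested were called higher and 5.17% lower. At an unadjusted p under 0.05 there were 2 members, Cyp27a1 and Akr1d1. In ethanol-fed mice 2 were called higher (Cyp27a1 and Nr1h4) and 5 lower (Cyp8b1, Cyp7a1, Akr1d1, Slc27a5 and Hsd3b7), against 10.4% and 11.1% of all genes. The count fell to 3 without library 7 of EtOH control, and to 4 without library 1, 3, 13 or 15. Calls over all genes fell too, from 1300 higher and 1393 lower to 958 and 1022 without library 7. The difference between the effects of IMC in the diets was called for 1 member, Cyp8b1, and for 1.11% of all genes. For IMC averaged over both diets, 2 members were called higher (Cyp27a1 and Nr1h4) and 3 lower (Cyp8b1, Akr1d1 and Hsd3b7), and 14.1% and 14% of all genes. Ethanol alone called 1 higher (Akr1d1) and 1 lower (Nr1h4), against 6.33% and 5.54%. Ethanol under IMC called 0 higher and 3 lower (Cyp8b1, Cyp7a1 and Slc27a5), against 7.86% and 8.57%. Groups did not overlap for 1 member with IMC in pair-fed mice (14.3% of all genes), 4 with IMC in ethanol-fed mice (25.3%), 4 with ethanol alone (19.0%) and 4 with ethanol under IMC (19.2%). Shared groups tie these comparisons together, since EtOH IMC enters both IMC in ethanol-fed mice and ethanol under IMC.

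Within groups, Cyp7a1 tended to be low in the livers where Nr0b2 was high, by Pearson's r but not by Spearman's rho after adjustment. Each liver's log2 value was taken as its deviation from the mean of its group, for all 45 pairs of members, a relation examined after seeing the data. Cyp7a1 and Nr0b2 gave Pearson's r = -0.61 over 16 livers (exact permutation p = 0.00324 over 331776 re-pairings within groups, adjusted p = 0.0365 over 45 pairs). Spearman's rho was -0.59 (exact permutation p = 0.0252, adjusted p = 0.226). Without libraries 1 and 3, the farthest in Cyp7a1, r was -0.60. Of 12536 genes, 2.28% were at least as negatively related to Nr0b2 and 1.06% to Cyp7a1. Cyp8b1 and Nr0b2 gave r = -0.34 (adjusted permutation p = 0.544). By Pearson's r 3 other pairs passed, Cyp27a1 with Slc27a5 (r = 0.81), Cyp7b1 with Hsd3b7 (0.65) and Cyp7a1 with Akr1d1 (0.56), and by rho no pair did. In 8 of 8 livers with Nr0b2 above its group mean Cyp7a1 was below its own, and in 7 of the other 8 it was above. This tally restates the same deviations and is not a further test. The time of day of tissue collection is not in the labels.

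**Figure D3:**
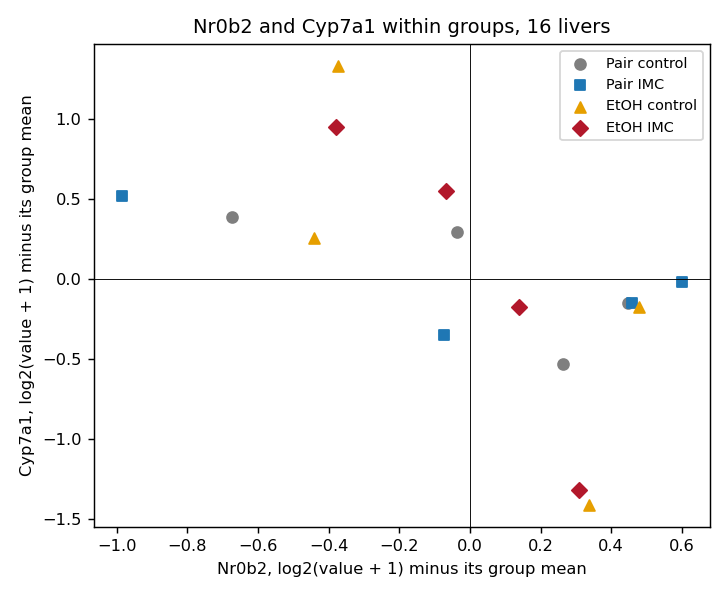
Deviation of Cyp7a1 (vertical axis) against that of Nr0b2 (horizontal axis) from the group mean, both in log2(value + 1), for 16 livers with a symbol for each group. All 8 livers with Nr0b2 above its group mean have Cyp7a1 below its own, with r = -0.61 over all 16.

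The factors that drive Cyp7a1 and Cyp8b1 were compared next. With IMC in ethanol-fed mice, 2 of 16 regulators tested were called higher and 2 lower. Over all genes tested, 10.4% were called higher and 11.1% lower in that comparison, so the list was called at close to the all-gene rate. In pair-fed mice the shares were 4.32% and 5.17%. The counts of the lists that follow stand against the same shares. Hnf4a, an activator of both genes, rose 1.54-fold (log2 0.62, SE 0.13, adjusted p = 0.00298), from 8036 ± 1062 to 12314 ± 842 normalized counts (SD, n = 4). It also rose in pair-fed mice (log2 0.71, adjusted p = 0.00322). Nr1i2, the xenobiotic receptor PXR, was higher in ethanol-fed mice (log2 0.33) and Ppara, the fatty acid receptor, lower (-0.50). Mafg, an FXR-induced repressor of Cyp8b1, was lower under IMC in both diets (-0.34 in pair-fed and -0.33 in ethanol-fed mice). Nr5a2 (LRH-1) had a log2 fold change of -0.02 in each diet, Fgfr4 0.03 and 0.05, and Klb 0.24 and 0.14, in pair-fed and ethanol-fed mice, and none of these was called. In pair-fed mice the list held 1 gene called higher and 2 lower, Foxa2 being the other lower gene (-0.74). Averaged over both diets 2 were called higher and 4 lower, the latter including Cebpa (-0.33) and Prox1 (-0.40), neither of which was called in a single diet.

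Other FXR targets did not move together. Of 7 tested, 0 were called higher and 3 lower with IMC in ethanol-fed mice. These were Pltp, the phospholipid transfer protein (log2 -1.02), Apoc2 (-0.74) and Mafg, and the median of the list was -0.33 where that of all genes was -0.002. Abcb11, the bile salt export pump and a leading FXR target, was not called (log2 -0.13, adjusted p = 0.458). In pair-fed mice 1 was called higher, Abcb4 (0.39), and 1 lower, Mafg. With ethanol alone Slc51b, a subunit of the basolateral bile acid exporter, was called higher at a low level, from 5.46 ± 4.58 to 14.2 ± 1.70 normalized counts (SD, n = 4). It passed the filter on low values because of EtOH control, where it ranged from 12.7 to 16.1. It ranged from 1.02 to 11.7 in Pair control and reached at most 3.78 in Pair IMC and 9.45 in EtOH IMC. The call of higher with ethanol is therefore not independent of the filter.

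Of 9 genes of side chain shortening and other sterol hydroxylation, 2 were called higher and 3 lower with IMC in ethanol-fed mice, and 0 by limma in pair-fed mice, where 2 had an unadjusted p under 0.05. The lower genes act in peroxisomal shortening of the side chain (Amacr -0.32, Scp2 -0.33, Abcd3 -0.41). The higher ones were Cyp39a1, an oxysterol hydroxylase (0.56), and Cyp2c70, which makes muricholic acids (0.48). Of 10 bile acid transporters, 3 were called higher and 3 lower. Abcc4, a basolateral export pump, rose from 232 ± 62.6 normalized counts in EtOH control to 979 ± 387 in EtOH IMC (SD, n = 4), against 68.8 ± 21.4 in Pair control, and Abcc2 (log2 0.50) and Atp8b1 (0.34) rose with it. The uptake carriers Slc10a1 (-0.58), Slco1a4 (-0.76) and Slco2b1 (-0.54) fell. In pair-fed mice Slco2b1 (-0.61) was the single transporter called.

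**Figure D4:**
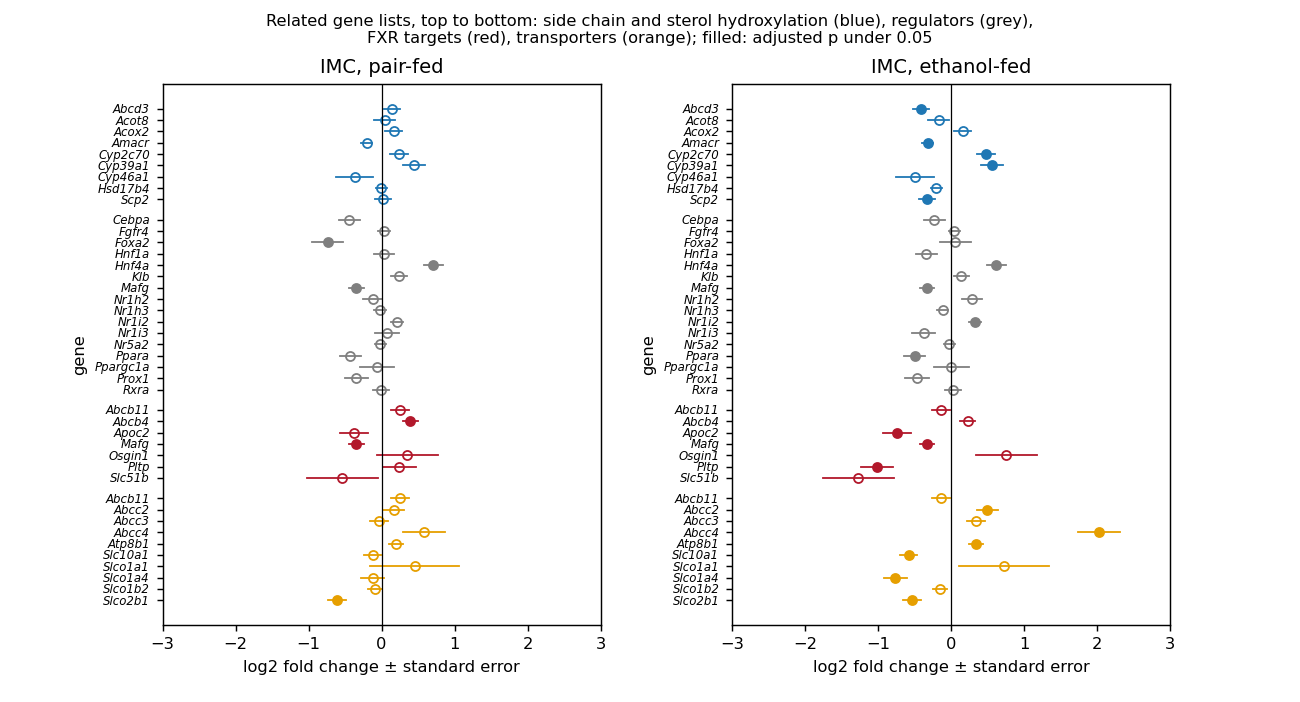
Log2 fold change with IMC (horizontal axis, bars ± SE) of genes of 4 related lists in pair-fed mice (left) and ethanol-fed mice (right); filled points have an adjusted p under 0.05. Abcc4 lies farthest to the right in ethanol-fed mice, at 2.03, and Hnf4a is filled in both diets.

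Cyp7a1 is known to be most abundant near the central vein, so markers of hepatocyte zones were counted. With IMC in ethanol-fed mice 5 of 10 pericentral markers were called lower and 0 higher, namely Oat (log2 -1.17), Rgn (-1.05), Cyp2e1 (-0.82), Lhpp (-0.75) and Gulo (-0.39). The other 5 were not called: Glul, the defining pericentral gene (-0.21), Tbx3 (-0.48), Axin2 (-0.23), Slc1a2 (0.15) and Cyp1a2 (0.58). In pair-fed mice 2 were called lower and 0 higher, with a list median of -0.31, where Cyp7a1 stood at 0.69 and was not called. The summed pericentral level ranged from 92272 to 116291 normalized counts in EtOH control and from 58015 to 89312 in EtOH IMC, against 113586 to 139603 in Pair control and 87224 to 113465 in Pair IMC. None of the list was at 0. Of 9 periportal markers 1 was called higher and 2 lower, and their sum ranged from 94128 to 130938 in EtOH control and from 111615 to 128719 in EtOH IMC. The sum hides changes of less abundant periportal genes in both directions, and the median log2 fold change of the list was 0.02. Mean Cyp2f2 was 9286 normalized counts in EtOH control and 3561 in EtOH IMC, and mean Aldh1b1 was 1947 and 1435. Mean Hsd17b13 was 4831 in EtOH control and 8188 in EtOH IMC. For each of these genes the groups did not overlap, as for 25.3% of all genes tested. Periportal markers thus moved in both directions with IMC in ethanol-fed mice. The part of zonation in the members' changes was not tested. In whole liver, fewer cells of a kind and less RNA per cell cannot be told apart.

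The genes with a profile nearest to that of Cyp8b1 over the 16 libraries, by root mean square difference of centred log2 values, were Fhit (0.63), Cmah (0.66), Ugt1a5 (0.66), Srgap3 (0.68) and 4930556N13Rik (0.70), where Cyp8b1 itself departs from its mean by 1.23. Cmah, the hydroxylase of sialic acid, stood at 1306 ± 175, 1171 ± 301, 1727 ± 217 and 505 ± 109 normalized counts (SD, n = 4) in the groups as listed for Cyp8b1, again highest in EtOH control and lowest in EtOH IMC. Fhit and 4930556N13Rik were at low levels, with means of 3.81 and 5.55 normalized counts in EtOH IMC. Unlike Cyp8b1, Fhit was highest in Pair control, at 32.0 ± 5.38. For Cyp7a1 (own departure 1.06) the nearest were Gm16861 (0.56), Papln (0.67), Susd4 (0.72), Dnm3os (0.73) and Lncpint (0.73), all expressed at low levels. For Nr0b2 (0.47) they were Pard6b (0.28), Zfp14 (0.31), Rabl2 (0.31), Gm527 (0.32) and Crnkl1 (0.33).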

How the data were processed

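Liver RNA of 16 mice was analysed from the gene table that the authors deposited, which held 27212 rows for 24082 Ensembl IDs. Its signal values are the authors' read counts scaled per library, and 100% of values were whole multiples of the value of 1 read to within 0.01. Reads were trimmed with Trim Galore, checked with FastQC, aligned to mm10 with STAR and normalized by upper quantile in edgeR. The counting tool is not given in the sources used here, and the methods describe single-end reads where the labels describe paired-end reads from a directional kit.

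All 16 libraries were rescaled by a median ratio over all 16 and tested with limma 3.58.1 in R 4.3.3 on log2(value + 1), two-sided, with 4 group means, a trend of variance with mean, and a filter of 10 in at least 4 libraries. The exact permutation tests used scipy 1.17.1 and Python 3.11.15, and plots matplotlib 3.10.9. On whole reads of 16 libraries, edgeR 4.0.16 with TMM called 1412 genes higher and 1387 lower with IMC in ethanol-fed mice; DESeq2 1.42.0 was also run. In library 15, 1 read is worth 1.01, so tests on whole reads were repeated without it, an alternative chosen after seeing the data. All members are named; genes of the related lists could be named where called in an IMC comparison, and not all of those are. List genes named without such a call were chosen after their values were seen. The members and lists were chosen with earlier results of these data known. The labels do not tie libraries to cages or days, and p-values measure the spread between these mice. Positions are from GENCODE vM21 on GRCm38.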

Additional observations from a re-analysis of the deposited data

Results flagged for a closer look

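Cyp8b1 was flagged because the effect of IMC differed between the diets by a test of the difference itself, at -2.99 on the log2 scale (limma, adjusted p = 0.00768); 4 of 4 EtOH IMC livers lay below every EtOH control liver, and the pair-fed groups overlapped. The same difference also separates low from high library numbers and cannot be told apart from it.

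Cyp7b1 in EtOH control was flagged for a liver far from the others of its group. Library 1 stood at 163 normalized counts and the remaining 3 between 212 and 216, a gap of 0.917 of the group's range, past Dixon's limit. It was the only such case among 40 groups examined, and chance flags about 1 group in 20.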

How the results depend on the processing

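The number of members called for IMC in pair-fed mice, 1, became 0 with no filter on low values, without a mean-variance trend, with only the libraries of the comparison, and with edgeR at upper-quartile normalization, and ranged from 0 to 1 when single libraries were left out. For IMC in ethanol-fed mice, 7 members became 3 to 7 as single libraries were left out. Without library 7, where 3 were called, calls over all genes were 958 higher and 1022 lower, against 1300 and 1393 with all libraries. When single libraries were left out, the difference between diets gave 1 to 2, ethanol in vehicle mice 1 to 2, IMC averaged over both diets 4 to 6, and ethanol in IMC mice 2 to 4. Ethanol in vehicle mice gave 3 with only the libraries of the comparison and with DESeq2 without library 15. No fold change that was called reversed under any alternative. On the values as deposited, all-gene calls for ethanol in vehicle mice were 2801 higher and 199 lower, against 794 and 694 after rescaling, and for ethanol in IMC mice 3183 and 441 against 985 and 1075, the median gene then shifting by 0.18 and 0.19 (log2). Upper-quartile scaling gave 427 higher and 777 lower for IMC in pair-fed mice, against 541 and 648, and 908 and 609 for ethanol in vehicle mice. DESeq2 called 338 genes for the difference between diets against 139. No paired analysis was possible because the groups share no replicate numbers. The causes of lost calls were not tested. With 4 mice a group, the intervals of Nr0b2 and Cyp7a1 were wide, and a comparison without a call does not show that either gene was unchanged.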

Other observations

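Clock output genes were listed after seeing the data, since Cyp7a1 is known to vary over the day. With IMC in ethanol-fed mice, Per1 was called higher (log2 0.87, limma adjusted p = 0.0254), and 9 of 10 were not called. In pair-fed mice 0 of 10 were called by limma and 2 had an unadjusted p under 0.05, with log2 fold changes as wide as -2.02 for Dbp and -2.01 for Per3.

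Of 6 stellate cell markers, 3 were called lower with IMC in ethanol-fed mice, Reln (log2 -1.26), Col3a1 (-0.87) and Pdgfrb (-0.69), and 3 higher with ethanol alone, Lrat (1.16), Pdgfrb (0.63) and Dcn (0.40). The summed level of the list ranged from 4302 to 5146 normalized counts in EtOH control and from 2733 to 3590 in EtOH IMC.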
